A study of Mus musculus with 28 samples.

Results

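The transcripts of the mitochondrial respiratory chain and ATP synthase were followed in mouse liver RNA-seq, in genes of both the nuclear and the mitochondrial genome. Members were taken by symbol: the Nduf genes of complex I, Sdha to Sdhd of complex II, the Uqcr genes of complex III, the Cox4 to Cox8 genes of complex IV whose number is followed by a, b or c (which leaves out Cox4i1 and Cox4i2), the Atp5 genes of complex V, and the subunit genes of mitochondrial DNA (mtDNA). Of 49585 counted gene features 101 matched, 7 of these were annotated pseudogenes and were set aside, and 94 remained. Of the 94 members, 81 are nuclear (35 in complex I, 4 in complex II, 8 in complex III, 17 in complex IV with Ndufa4, and 17 in complex V) and 13 are mtDNA-encoded (7 in complex I, 1 in complex III, 3 in complex IV and 2 in complex V). The livers came from C57BL/6JOlaHsd mice at 5 to 7 months of age, with 7 libraries for each sex and genotype, and the genotypes were WT and SIRT6-tg, which makes 4 groups. SIRT6-tg mice overexpress the deacylase SIRT6 from a single transgenic line and the WT mice were their littermates, and the promoter of the transgene is not given in the sources used here. The mice had been fasted briefly, and every library came from an individual animal. The livers were sequenced to look for pathways that go with the gluconeogenic capacity of SIRT6-tg mice.

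Complex I oxidizes NADH, complex II oxidizes succinate, complex III passes electrons to cytochrome c, complex IV reduces oxygen, and complex V uses the resulting proton gradient to make ATP. The chain is built from both genomes: mtDNA encodes hydrophobic core subunits of every complex except II, and nuclear genes encode the remaining core subunits, the accessory subunits and all of complex II. The liver draws on this chain for gluconeogenesis, urea synthesis and fatty acid oxidation.

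Total counts ran from 18758863 to 35393069 per library. Levels are given as CPM, a count scaled to library depth, after edgeR's TMM scaling, as the lowest, median and highest of the 7 libraries of a group. Sirt6 itself was at a median of 2.76 CPM in male WT and 271 CPM in male SIRT6-tg, and at 2.53 CPM in female WT and 29.6 CPM in female SIRT6-tg, and its ranges did not overlap between genotypes in either sex. The 6 hepatocyte markers were abundant in every library (summed to 91996 to 183621 CPM). In bulk liver, fewer cells of a type and less RNA per cell cannot be told apart. In male SIRT6-tg against male WT, all 6 T cell markers, all 6 Kupffer cell and macrophage markers, 3 of 4 B cell markers and all 5 stellate cell markers were lower, and 2 of 6 hepatocyte markers were higher, in the same test. The summed T cell markers were at 11.3 to 36.3 CPM in male WT and 3.73 to 5.41 CPM in male SIRT6-tg, and the summed macrophage markers at 277 to 846 CPM against 215 to 369 CPM. The part of these differences in the results that follow was not tested.

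The count table did not cover the 13 mtDNA genes evenly. Only reads with a single place in the genome were kept, and an insertion of mtDNA in mouse chromosome 1 carries copies of several of these genes. The principal transcript of each member was therefore cut into 50-base windows, and each window was looked for in the annotated transcripts of every other locus. Windows of mt-Co2 recurred elsewhere at 100%, of mt-Co3 at 99.9%, of mt-Atp6 at 99.5%, of mt-Nd4l at 98.8%, and of mt-Nd3 at 98%. Over all 28 libraries these 5 genes held 5, 6, 6, 0, and 460 counts. By contrast mt-Cytb, mt-Nd1, and mt-Nd6, with no shared window, held 6154788, 5077471, and 1742285 counts. Between these ends, mt-Co1 shared 51.1% of its windows and mt-Nd4 62.2%, with 9069459 and 2067832 counts. mt-Atp8 is the exception, with 0 counts and no shared window among annotated transcripts, although 21.1% of its length overlaps mt-Atp6.

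**Figure D1:**
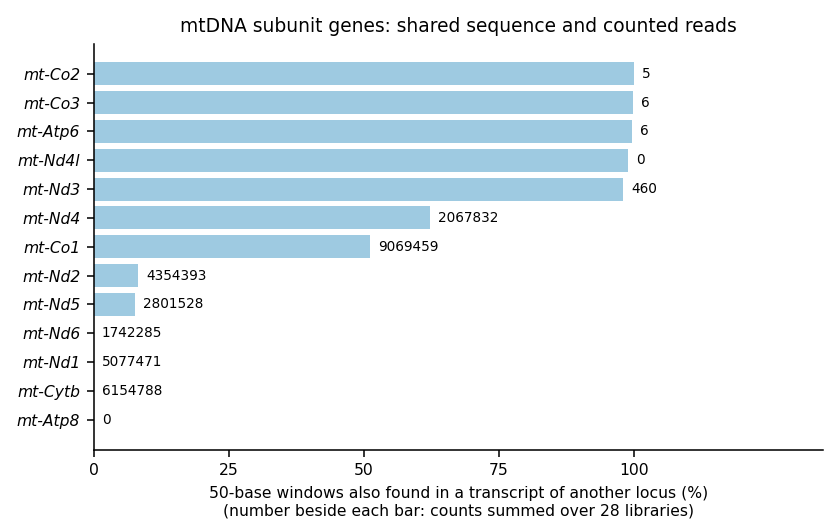
Each bar gives, for 1 of the 13 mtDNA subunit genes, the percent of 50-base windows of its transcript that also occur in an annotated transcript of another locus, and the number beside it gives the counts summed over the 28 libraries. The 5 genes at 98% or more hold at most 460 counts, and apart from mt-Atp8 the other genes hold 1742285 or more.

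The first 60 bases of mt-Nd3 and of its nuclear copy Gm28438 (chromosome 1, 24612775 to 24613119, minus strand, GRCm38), and of mt-Co2 and its copy Gm28661 (chromosome 1, 24614885 to 24615565, minus strand), show how little separates them. They are the annotated transcript sequences, 5′ to 3′, and a capital marks a base that differs within a pair.
mt-Nd3: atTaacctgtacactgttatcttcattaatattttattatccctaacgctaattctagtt
Gm28438: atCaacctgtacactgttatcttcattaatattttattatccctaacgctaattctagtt
mt-Co2: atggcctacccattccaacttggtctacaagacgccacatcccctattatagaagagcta
Gm28661: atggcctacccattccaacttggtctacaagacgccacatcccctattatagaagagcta
Over 345 aligned bases the single difference of mt-Nd3 from its copy was T3C, counted from 1 at the transcript's 5′ end with the mtDNA base first. mt-Co2 and its copy did not differ over 681 aligned bases. A low count of these genes therefore says nothing about the level of their RNA, and mt-Co2, mt-Co3, mt-Atp6, mt-Atp8 and mt-Nd4l entered no test.

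Nuclear members were affected less often. Atp5g2 shared 87.4% of its windows with another locus, Atp5l 68.5%, Cox7c 53%, Atp5h 47.9%, Uqcrb 43.2%, Ndufb4 37.0%, Ndufs3 35.8%, and Ndufs5 31.1%, and values of these 8 are uncertain. Some nuclear members overlap another annotated gene in part of their length. Among these were Atp5o at 48.6%, Cox5a at 41.7%, Uqcrc2 at 26.6% (Pdzd9) and Atp5j at 22.5% (Gabpa). Atp5f1 overlapped Wdr77 in the same way. A read in such a stretch can belong to either gene, and the effect on these counts was not tested. Of 81 nuclear members 79 passed the filter on low counts (a mean of at least 0.5 normalized counts). Cox7b2 and Cox8c, testis-type paralogs of complex IV subunits, had 0 counts in all 28 libraries. Of the 13 mtDNA members, 8 passed, among them mt-Nd3 with its few counts.

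Per kilobase of principal transcript (RPKM, median over the 28 libraries), the mtDNA members with ample reads stood above every nuclear one, and mt-Nd3, with its shared sequence, was at 1.18 RPKM. mt-Co1, the catalytic core of complex IV, was at 7540 RPKM, mt-Nd1 at 7518, and mt-Cytb at 7348. Among nuclear members the highest was Atp5b, the catalytic beta subunit of ATP synthase, at 663 RPKM, followed by Atp5g3 at 631 and Cox6a1 at 509, and the median of the 79 was 129 RPKM. By complex, the median of the nuclear members was 81.2 RPKM in complex I, 178 in II, 191 in III, 145 in IV, and 146 in V.

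Where one subunit has several genes, a single form dominated. Cox6a1 was at 509 RPKM and its heart and muscle form Cox6a2 at 0.111. Cox6b1 was at 363 RPKM and Cox6b2 at 0.567. Cox8a was at 235 RPKM and the muscle and brown fat form Cox8b at 0.113. Cox7a2 was at 182 RPKM, Cox7a2l, a supercomplex factor of the same family, at 50.2, and the muscle form Cox7a1 at 5.11. Of the genes for the c ring of ATP synthase, which encode the same mature protein, Atp5g3 was at 631 RPKM, Atp5g1 at 4.91, and Atp5g2 at 1.09, the last with the shared sequence given above. The principal transcript is 4715 bases for Atp5g1 and 723 for Atp5g3, so their gap is narrower in the CPM given below.

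The first comparison was SIRT6-tg against WT in males. Members called higher in SIRT6-tg livers came from all 5 complexes and both genomes. The median log2 fold change was 0.52 over the 79 nuclear members tested and 0.62 over the 8 mtDNA members, against 0.06 over all 21583 genes tested. At an edgeR adjusted p under 0.05, 28 of 79 nuclear members were higher and 1 lower, and 6 of 8 mtDNA members were higher and none lower, where 9.68% of all genes tested were higher and 11% lower. These 6, and the mtDNA median, include mt-Nd3 with its shared sequence and few counts. Of the nuclear members, 13 of 35 were called higher in complex I, 3 of 4 in II, 3 of 8 in III, 4 of 15 in IV, and 5 of 17 in V. The medians of the nuclear members lay close together, at 0.54, 0.45, 0.55, 0.52, and 0.50 for complexes I to V. Of the 79, 76 had a positive log2 fold change, and the exceptions were the low-level isoforms Cox6a2, Cox6b2 and Cox8b. All 7 libraries of SIRT6-tg lay above all 7 of WT in 6 nuclear and 3 mtDNA members, where 2.6% of all genes tested did so and 4.37% separated the other way. These separations are of TMM-scaled values. The TMM factors, which divide the counts, ran from 1.062 to 1.174 in male WT and from 0.821 to 0.993 in male SIRT6-tg, without overlap. They thus raise SIRT6-tg values against WT values, and whether ranges stay apart without this scaling was not tested.

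**Figure D2:**
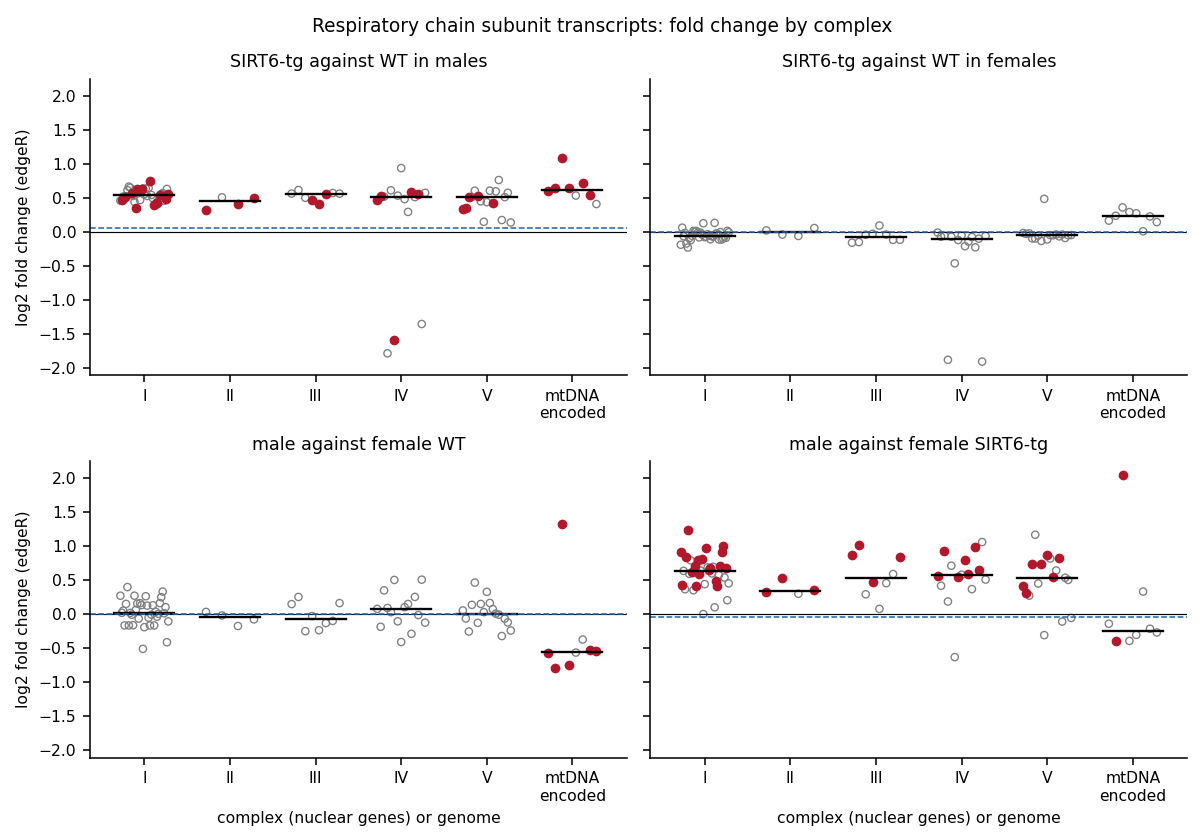
Points give the edgeR log2 fold change of each tested member in 4 comparisons (79 nuclear members by complex, and 8 mtDNA members), filled red at an adjusted p under 0.05 and open grey otherwise. Black bars are medians, and the dashed line is the median over all genes tested. In males nearly all members sit near 0.5, in females near 0, and in male against female WT most mtDNA members sit below 0.

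In complex I the lowest adjusted p belonged to Ndufs1, the largest of the iron-sulfur core subunits. Ndufs1 was at 89.6, 108 and 129 CPM in male WT and 127, 145 and 154 CPM in male SIRT6-tg (log2 fold change 0.40, SE 0.080, edgeR adjusted p = 0.00048). The groups overlapped only between the highest WT and the lowest SIRT6-tg library. Ndufa10, an accessory subunit of the membrane arm, went from 118, 139 and 175 CPM to 158, 180.1 and 277 CPM (log2 fold change 0.47, SE 0.11, edgeR adjusted p = 0.00328). The smallest difference in complex I was that of Ndufa9, at 95.8, 107 and 127 CPM against 119, 134 and 163 CPM, and it still passed (log2 fold change 0.36, SE 0.10, edgeR adjusted p = 0.0146). Of the 7 nuclear core subunits, which carry the flavin and the iron-sulfur clusters, 4 were called higher, among them Ndufs1, Ndufs3 and Ndufv1, with a median log2 fold change of 0.46. Of the 28 accessory subunits 9 were called higher, with a median of 0.55.

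Complex II, the succinate dehydrogenase that also serves the TCA cycle, has 4 subunits, all nuclear. Sdhd, a membrane anchor, was at 176, 194 and 220.2 CPM in male WT and 211, 263 and 369 CPM in male SIRT6-tg (log2 fold change 0.49, SE 0.12, edgeR adjusted p = 0.00223). Only the lowest SIRT6-tg library fell within the WT range. Sdha, the flavoprotein, was at 372, 511 and 611 CPM against 568, 658 and 687 CPM (log2 fold change 0.32, SE 0.095, edgeR adjusted p = 0.0163), and it also had the smallest difference of the complex. Sdhc was called higher as well (log2 fold change 0.41, SE 0.14, edgeR adjusted p = 0.0282). Sdhb, the iron-sulfur subunit, had a log2 fold change of 0.51 that did not pass, with an SE of 0.19 and an edgeR adjusted p of 0.0587.

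In complex III both core proteins were among the called members. Uqcrc1 was at 201, 220.0 and 249.8 CPM in male WT and 268, 304 and 373 CPM in male SIRT6-tg, with no overlap (log2 fold change 0.47, SE 0.11, edgeR adjusted p = 0.00309). Uqcrc2 was at 107, 162 and 189.7 CPM against 179, 209 and 249 CPM (log2 fold change 0.41, SE 0.11, edgeR adjusted p = 0.0071), and it was also the member with the smallest difference in this complex. The Rieske iron-sulfur protein Uqcrfs1 was the remaining called member (log2 fold change 0.55, SE 0.18, edgeR adjusted p = 0.0258). The 5 small subunits Uqcrb, Uqcrh, Uqcrq, Uqcr10, and Uqcr11 had log2 fold changes of 0.50, 0.57, 0.56, 0.56, and 0.61, and none passed.

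Complex IV held members that moved in opposite directions. Cox8a, a small membrane subunit, was at 105, 113 and 148 CPM in male WT and 149.6, 168 and 244 CPM in male SIRT6-tg, with no overlap (log2 fold change 0.56, SE 0.14, edgeR adjusted p = 0.00469). Cox6b2, the testis-type form of subunit 6b, was at 0.265, 0.40 and 1.29 CPM against 0.0416, 0.173 and 0.349 CPM (log2 fold change −1.60, SE 0.42, edgeR adjusted p = 0.00603), the single member called lower. Cox6b2 stood at or below 1.29 CPM in every library, with 291 counts over all 28, and its call and direction held under every alternative that was run. Its common counterpart Cox6b1 was at 157, 212 and 422 CPM against 211, 271 and 653 CPM (log2 fold change 0.61, SE 0.30, edgeR adjusted p = 0.152), and the ranges overlapped widely. The muscle forms Cox6a2 and Cox8b were at 0.0743, 0.177 and 0.295 CPM and 0, 0.0667 and 0.42 CPM in WT against 0, 0 and 0.194 CPM and 0, 0.0375 and 0.164 CPM in SIRT6-tg, and neither passed (edgeR adjusted p = 0.145 and 0.228). Cox8b was highest in male WT 3 (0.420 CPM) and next in male WT 2 (0.133 CPM), the library in which the summed skeletal muscle markers stood at 9.76 CPM against at most 0.72 CPM in the other male WT libraries. By contrast Cox6a2 was highest in male WT 6 (0.295 CPM), where these markers stood at 0.169 CPM. The part of muscle in these values was not tested. Cox6a2 had the lowest log2 fold change of the complex (−1.79, SE 0.86) at a level of a few counts per library.

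The other isoforms of complex IV were higher or did not pass. Cox7b, the X-linked form of subunit 7b, was at 115, 129.6 and 214 CPM against 142, 185 and 337 CPM (log2 fold change 0.58, SE 0.21, edgeR adjusted p = 0.0444). Cox7a1 was at 0.904, 1.63 and 4.13 CPM against 1.95, 2.97 and 6.31 CPM (log2 fold change 0.94, SE 0.36, edgeR adjusted p = 0.0628). Cox7a2 was at 91, 116 and 196 CPM against 122, 143 and 267 CPM (log2 fold change 0.48, SE 0.23, edgeR adjusted p = 0.154). All 3 overlapped between the groups, and a single WT library, male WT 6, was the highest of its group in each. Cox7a2l was at 46.3, 51.8 and 76.3 CPM against 50.5, 65.4 and 93.3 CPM (log2 fold change 0.29, SE 0.16, edgeR adjusted p = 0.206), and Cox6a1 at 235, 291 and 567 CPM against 291, 391 and 832 CPM (log2 fold change 0.52, SE 0.28, edgeR adjusted p = 0.208).

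In complex V the members called higher were the alpha, beta and gamma subunits of the F1 head (Atp5a1, Atp5b, and Atp5c1) and the stalk subunits Atp5f1 and Atp5j. Atp5b was at 973, 1189 and 1305 CPM in male WT and 1423, 1509.9 and 1666 CPM in male SIRT6-tg, with no overlap (log2 fold change 0.35, SE 0.076, edgeR adjusted p = 0.00123). Atp5c1 was at 204, 211 and 251 CPM against 252, 297 and 379.7 CPM, again with no overlap (log2 fold change 0.50, SE 0.12, edgeR adjusted p = 0.00298). Its highest WT and lowest SIRT6-tg values lay close together, and their order depends on the TMM scaling. The smallest difference was that of Atp5s, a coupling factor that is not a structural subunit, at 4.27, 5.6 and 6.33 CPM against 4.32, 6.31 and 7.03 CPM (log2 fold change 0.14, SE 0.14, edgeR adjusted p = 0.546). None of the c ring genes passed. Atp5g3 was at 403, 438 and 592 CPM against 466, 595 and 899 CPM (log2 fold change 0.43, SE 0.17, edgeR adjusted p = 0.0671). Atp5g1 was at 19.6, 22.6 and 34.7 CPM against 26, 29.7 and 45.5 CPM (log2 fold change 0.45, SE 0.19, edgeR adjusted p = 0.0897), and Atp5g2 at 0.442, 0.80 and 0.904 CPM against 0.505, 0.781 and 1.2 CPM (log2 fold change 0.15, SE 0.22, edgeR adjusted p = 0.714).

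Of the mtDNA members, mt-Nd1, a membrane subunit of complex I at the quinone site, had the lowest adjusted p. It was at 3445, 5295 and 5575 CPM in male WT and 6591, 7295 and 8466 CPM in male SIRT6-tg, a 1.51-fold difference with no overlap (log2 fold change 0.60, SE 0.11, edgeR adjusted p = 0.000138). mt-Nd2 and mt-Cytb also did not overlap (log2 fold changes 0.64 and 0.55), and mt-Nd3, mt-Nd4 and mt-Nd6 were called with overlap (1.08, 0.64, and 0.71). The value of mt-Nd3 is uncertain, since it held 460 counts in all and 98% of its windows recur in a nuclear copy. mt-Co1, the mtDNA member with the most counts, was at 4523, 9083 and 11471 CPM against 8645, 11829 and 16363 CPM and did not pass (log2 fold change 0.41, SE 0.17, edgeR adjusted p = 0.0907). Its WT libraries ran down to the lowest level of all 28. mt-Nd6 is encoded on the opposite strand to the other mtDNA subunits. The library kit does not mark strand, so for mt-Nd6 reads of the gene and of RNA from the facing strand cannot be told apart, and its value is uncertain.

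**Figure D3:**
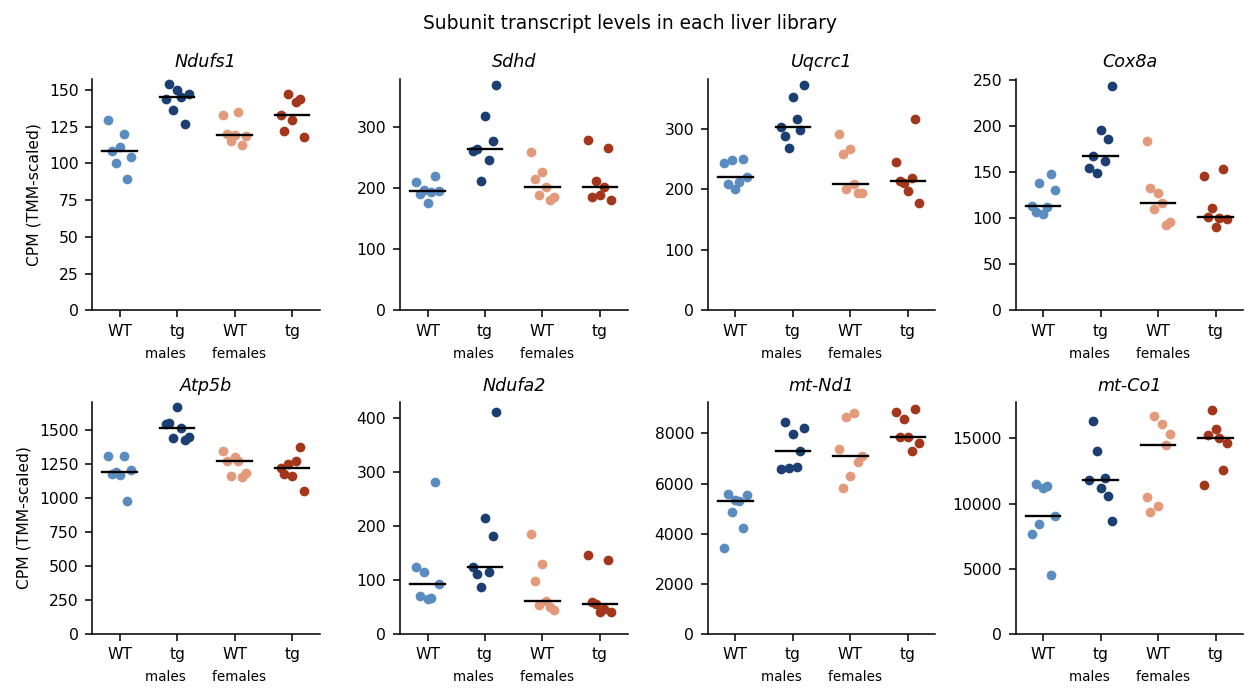
Points give the TMM-scaled CPM of 8 members in each of the 28 libraries, 7 per group, and black bars give group medians. Atp5b, Uqcrc1, Cox8a, and mt-Nd1 do not overlap between male WT and male SIRT6-tg, and Ndufa2, a short accessory subunit of complex I that was not called, spreads from 63.9 to 411 CPM within the males.

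Members that were called and members that were not differed in their error more than in their fold change. The 28 nuclear members called higher had a median log2 fold change of 0.49 with a median SE of 0.14, and the 50 not called in either direction had 0.53 with 0.26. Of the 32 nuclear members with a principal transcript over 1000 bases 19 were called higher, and of the 47 with a shorter one 9. Within groups, the SD of the log2 CPM was smallest for Atp5b (0.11), Ndufs1 (0.13), and Atp5a1 (0.13), all with long transcripts. Among members above 1 RPKM it was largest for Atp5e, the epsilon subunit of the F1 head (0.83), and Ndufa2 (0.78), with short ones. The median SD was 0.46 over 44 short members and 0.32 over 32 long ones.

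The spread was also followed in other short genes. A short-gene index was computed for each library as the median log2 deviation, from the mean of the 28 libraries, of 249 other protein-coding genes with a principal transcript of at most 1000 bases, numbered Rpl and Rps ribosomal protein genes left out. Mitochondrial ribosomal proteins and respiration genes outside the naming rule were not left out, so the index can itself hold mitochondrial genes. The mean log2 CPM of the 79 nuclear members ran from 5.82 (male WT 4) to 6.69 (male WT 6) in male WT and from 6.10 (male SIRT6-tg 3) to 7.23 (male SIRT6-tg 7) in male SIRT6-tg. The index was likewise lowest in these libraries of each group (−0.31 and −0.12) and highest in male WT 6 (0.64) and male SIRT6-tg 7 (1.04). In all 4 groups the index and the nuclear members had their highest 2 libraries in common. As a difference of group means, SIRT6-tg minus WT in males was 0.36 for the index and 0.38 for the same measure over 49 ribosomal protein genes, beside 0.45 for the mean log2 CPM of the nuclear members. Other short genes thus moved with the members in males. Among the members, the same difference of means was 0.45 for transcripts over 1000 bases and 0.45 for shorter ones. Their median log2 fold changes were 0.47 and 0.56. The part of the short-gene shift in the male result was not tested beyond the fits that follow.

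**Figure D4:**
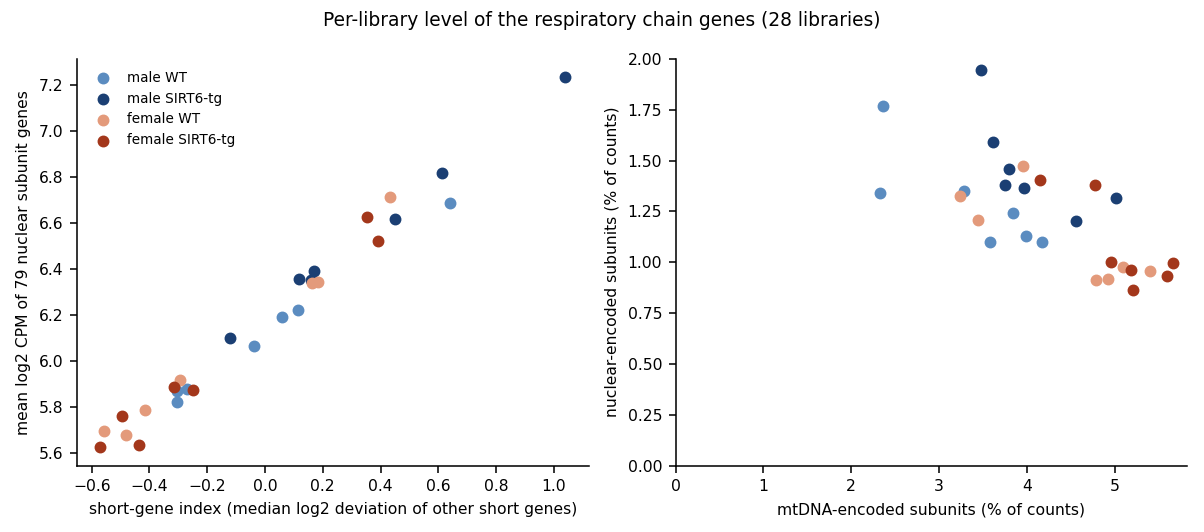
On the left, the mean log2 CPM of the 79 nuclear members tested is plotted against the short-gene index in 28 libraries, coloured by group, and the same colours on the right show the nuclear and mtDNA members as percent of all counts. Libraries of every group lie along 1 rising band on the left, and on the right the female libraries reach the lowest nuclear and highest mtDNA shares, with overlap between the sexes.

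The number called in males followed the scaling and single libraries, while the median over the nuclear members was positive in each fit that was run. With the index as a covariate, added after the data were seen, 35 nuclear members were higher and 2 lower with a median of 0.14, and all 8 mtDNA members were higher with a median of 0.71, where 4110 of all genes were higher and 2948 lower. Without the library of highest index in each group, also added later, 44 were higher with a median of 0.49 (2006 genes higher and 2312 lower). With library size alone as the scale, 0 nuclear and 1 mtDNA member were called higher at medians of 0.21 and 0.33, where the median of all genes shifted to −0.22 and 210 genes were higher and 4083 lower in place of 2089 and 2377. Upper-quartile scaling gave 13 nuclear members (942 genes higher and 2649 lower), RLE size factors 21 (1395 and 2511), removal of a length and GC trend 48 with 2 mtDNA members (2419 and 2588), and 2 surrogate variables 73 with 8 (4522 and 2909). Leaving out male WT 6 gave 63 nuclear members with 2444 of all genes higher, male SIRT6-tg 3 gave 43 with 2221, male WT 2 gave 17 with 1451, male SIRT6-tg 7 gave 15 with 1430, and male WT 4 gave 13 with 1098. The number of members called thus moved together with the number of all genes called higher in these 5 fits.

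The same comparison in females gave no called member. The median log2 fold change of SIRT6-tg against WT was −0.06 over the 79 nuclear members and 0.23 over the 8 mtDNA members, against 0.0026 over all genes, of which 0.0232% were called higher and 0.00463% lower. At an unadjusted p under 0.05 there were 2 nuclear members and no mtDNA member, and DESeq2 also called none. No member separated the 7 libraries of each group (0.0417% of all genes did in each direction). The lowest adjusted p belonged to genes of low level. Atp5g2 was at 0.409, 0.726 and 1.08 CPM in female WT and 0.634, 0.999 and 1.22 CPM in female SIRT6-tg (log2 fold change 0.48, SE 0.22, edgeR adjusted p = 0.837). Cox6a2 was at 0, 0.0417 and 0.73 CPM against 0, 0 and 0.136 CPM (log2 fold change −1.88, SE 0.89, edgeR adjusted p = 0.854), and Cox8b at 0.0306, 0.0417 and 0.269 CPM against 0, 0 and 0.0482 CPM (log2 fold change −1.91, SE 0.94, edgeR adjusted p = 0.889). Both muscle forms were highest in female WT 2, the library in which 5 summed skeletal muscle markers stood at 30 CPM, against at most 1.35 CPM in the other female libraries, and the part of muscle was not tested. The next were mt-Cytb, at 5538, 9384 and 9738 CPM against 8167, 10467 and 11799 CPM (log2 fold change 0.23, SE 0.14, edgeR adjusted p = 1), and mt-Nd2, at 4220.1, 6781 and 8471 CPM against 7005, 7635 and 8174 CPM (log2 fold change 0.24, SE 0.14, edgeR adjusted p = 1).

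Whether the genotype effect differed between the sexes was tested directly. Sirt6 was at a median of 271 CPM in male and 29.6 CPM in female SIRT6-tg livers. Sex and Sirt6 level therefore cannot be told apart in this difference. The effect in males minus that in females had a median of 0.58 on the log2 scale over nuclear members and 0.38 over mtDNA members, against 0.03 over all genes, and 1 member, Atp5b, passed (difference 0.38, SE 0.11, edgeR adjusted p = 0.0348), where 1.2% of all genes were called higher and 3.84% lower. Atp5b was at 1149.6, 1268 and 1344 CPM in female WT and 1047, 1217 and 1373 CPM in female SIRT6-tg, beside the male values above. Cox8a (difference 0.66, SE 0.20, edgeR adjusted p = 0.0501), Atp5j (0.47, 0.15, and 0.0649), Uqcrc1 (0.50, 0.16, and 0.067), and Atp5c1 (0.53, 0.17, and 0.0709) came next and did not pass. In females these were at 93, 117 and 184 CPM in WT against 90.1, 102 and 154 CPM in SIRT6-tg for Cox8a, and 194, 209 and 292 CPM against 178, 214 and 316 CPM for Uqcrc1. For Atp5j the 4 groups were at 127, 139.5 and 145 CPM in male WT, 148, 185 and 226 CPM in male SIRT6-tg, 109, 124 and 162 CPM in female WT, and 107, 120.0 and 156 CPM in female SIRT6-tg. Atp5c1 in females was at 214, 251 and 359.6 CPM against 206, 229 and 336 CPM. The call of Atp5b was lost under RLE, upper-quartile and library-size scaling, without the filter, with the replicate block, without the 4 libraries of highest index, and on leaving out any 1 of 15 libraries (edgeR adjusted p up to 0.0797 for these 15), and it held with DESeq2. With 2 surrogate variables 60 nuclear and 3 mtDNA members passed, where 1652 of all genes were higher and 1520 lower, and with the short-gene index as covariate 13 nuclear members were higher, 1 lower, and 4 mtDNA members higher, where 1349 of all genes were higher and 1385 lower.

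The next comparisons were between the sexes within a genotype. They share libraries with the genotype comparisons. In WT mice no nuclear member was called in either direction (median log2 difference of male minus female 0.02, with 5 of 79 at an unadjusted p under 0.05, and no call by DESeq2), while 5 of 8 mtDNA members were lower in males and 1 higher (median −0.55), where 6.66% of all genes were higher and 5.71% lower. In the same comparison all 6 T cell markers, 1 of 6 macrophage markers and 1 of 5 stellate cell markers were higher in males and 1 of 6 hepatocyte markers was lower. The summed T cell markers were at 11.3 to 36.3 CPM in male WT and 4.03 to 14.3 CPM in female WT, the summed macrophage markers at 277 to 846 CPM against 283 to 571 CPM, and the summed hepatocyte markers at 91996 to 131220.0 CPM against 140849 to 183621 CPM, and their part was not tested. mt-Nd2 was at 2112, 3866 and 4695 CPM in male WT and 4220.1, 6781 and 8471 CPM in female WT (log2 fold change −0.79, SE 0.14, edgeR adjusted p = 0.000248). mt-Nd1 was at 3445, 5295 and 5575 CPM against 5829, 7094 and 8806 CPM, without overlap (log2 fold change −0.57, SE 0.11, edgeR adjusted p = 0.000465), where 1.64% of all genes separated in that direction and 1.33% in the other. The TMM factors of male WT (1.062 to 1.174) and female WT (0.908 to 1.021) did not overlap either, and the separation without this scaling was not tested. mt-Nd4 was at 901, 1811 and 2367 CPM against 1583, 3214 and 3629 CPM (log2 fold change −0.75, SE 0.18, edgeR adjusted p = 0.00405), with overlap. mt-Cytb was at 3794, 6547 and 7570.2 CPM against 5538, 9384 and 9738 CPM (log2 fold change −0.53, SE 0.14, edgeR adjusted p = 0.00794), and mt-Co1 was the remaining member called lower (−0.53). mt-Nd3 ran the other way, at 0.334, 0.566 and 1.31 CPM against 0.0842, 0.282 and 0.368 CPM (log2 fold change 1.32, SE 0.38, edgeR adjusted p = 0.02). It is the gene of which 98% of windows recur in a nuclear copy, and without male WT 6 its adjusted p was 0.0636.

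The X-linked members Ndufa1 and Ndufb11 of complex I and Cox7b of complex IV were not called between the sexes in WT. Ndufa1 was at 48.1, 51.4 and 94.7 CPM in male WT and 34.8, 42.9 and 87.5 CPM in female WT (log2 fold change 0.27, SE 0.22, edgeR adjusted p = 0.484). Ndufb11 was at 96.6, 112 and 194 CPM against 86.8, 114 and 208 CPM (log2 fold change −0.06, SE 0.21, edgeR adjusted p = 0.9), and Cox7b at 115, 129.6 and 214 CPM against 126, 148 and 270.2 CPM (log2 fold change −0.29, SE 0.21, edgeR adjusted p = 0.42). With the short-gene index as covariate 4 nuclear members were higher in male WT and 26 lower (2341 and 2279 of all genes), with 2 surrogate variables 4 and 19 (2490 and 2332), and with library size alone 4 and 0 (3657 and 555).

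In SIRT6-tg mice 40 of 79 nuclear members were higher in males and none lower (median log2 difference 0.59), where 12.9% of all genes were higher and 10.2% lower, and 1 of 8 mtDNA members was higher and 1 lower (median −0.24). Sirt6 itself differed between these groups, with medians of 271 and 29.6 CPM, so sex and Sirt6 level cannot be told apart. Of the markers, 2 of 6 for hepatocytes were higher in males, and 3 of 5 for stellate cells, 1 of 6 for macrophages and 1 of 6 for T cells were lower. The hepatocyte markers were split, with 4 of 6 log2 fold changes positive and a range of −0.41 to 1.01. Their sum was at 116413, 136122 and 161122 CPM in male and 121141, 147900 and 178714 CPM in female SIRT6-tg. Summed stellate cell markers were at 219.7 to 319 CPM in male and 264 to 420.2 CPM in female SIRT6-tg, and summed T cell markers at 3.73 to 5.41 CPM against 4.41 to 8.83 CPM. The part of any of these was not tested. The nuclear members called were 19 of 35 in complex I, 3 of 4 in II, 4 of 8 in III, 7 of 15 in IV, and 7 of 17 in V. Only Sdha, Atp5a1 and Atp5b separated all 7 male from all 7 female libraries, 3 of 79 nuclear members, where 3.58% of all genes did so. Atp5j, a stalk subunit, was higher by 0.54 on the log2 scale (SE 0.11, edgeR adjusted p = 0.000396) from the levels given above. Atp5g3 was at 466, 595 and 899 CPM in male and 269, 312 and 526 CPM in female SIRT6-tg (log2 fold change 0.88, SE 0.17, edgeR adjusted p = 0.000396). Atp5a1, the alpha subunit, was at 1170.1, 1337 and 1404 CPM against 851, 979.8 and 1147 CPM (log2 fold change 0.41, SE 0.082, edgeR adjusted p = 0.000538). Ndufv1, the NADH-binding subunit, was at 196, 250.3 and 330.4 CPM against 126, 150.0 and 236 CPM (log2 fold change 0.67, SE 0.14, edgeR adjusted p = 0.000903). The mtDNA member called higher in males was mt-Nd3, at 0.781, 1.42 and 1.8 CPM against 0.0957, 0.219 and 0.996 CPM (log2 fold change 2.05, SE 0.36, edgeR adjusted p = 0.000126). Its value is uncertain, since it held 460 counts over the 28 libraries and 98% of its windows recur in a nuclear copy. mt-Nd2 was lower, at 4781, 5903 and 6989 CPM against 7005, 7635 and 8174 CPM without overlap (log2 fold change −0.39, SE 0.14, edgeR adjusted p = 0.0469), where 2.56% of all genes separated in that direction.

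Of the X-linked members in SIRT6-tg mice, Ndufa1 was at 56.9, 70.9 and 127 CPM in males and 28.6, 37.5 and 65.7 CPM in females (log2 fold change 0.92, SE 0.22, edgeR adjusted p = 0.00313). Ndufb11 was at 132, 171 and 289 CPM against 93.7, 113 and 189 CPM (log2 fold change 0.59, SE 0.21, edgeR adjusted p = 0.0421). Cox7b was at 142, 185 and 337 CPM against 114, 143 and 247 CPM and did not pass (log2 fold change 0.37, SE 0.21, edgeR adjusted p = 0.201). The short-gene index was at −0.12 to 1.04 in male and −0.57 to 0.39 in female SIRT6-tg, a difference of means of 0.54 beside 0.56 for the mean log2 CPM of the nuclear members. With it as covariate 27 nuclear members were higher in males and 9 lower with a median of 0.05 (3121 of all genes higher and 2124 lower), and leaving out male SIRT6-tg 7 gave 24 higher (2297 of all genes).

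Within a library the share of reads does not depend on scaling between libraries. The 13 mtDNA members took 2.33% to 4.17% of counts in male WT, 3.48% to 5.02% in male SIRT6-tg, 3.24% to 5.41% in female WT, and 4.15% to 5.66% in female SIRT6-tg. As mean ± SD over 7 libraries this was 3.37% ± 0.754 and 4.03% ± 0.558 in males, and 4.41% ± 0.853 and 5.08% ± 0.52 in females. The 81 nuclear members took 1.29% ± 0.236 and 1.47% ± 0.243 in males, and 1.11% ± 0.226 and 1.08% ± 0.22 in females. The log2 ratio of nuclear to mtDNA counts was −1.37 ± 0.57 in male WT, −1.46 ± 0.39 in male SIRT6-tg, −1.99 ± 0.55 in female WT, and −2.25 ± 0.41 in female SIRT6-tg. SIRT6-tg minus WT was −0.10 in males and −0.26 in females, both smaller than the SD within groups, and without male WT 6 the male difference was 0.063. Male minus female was 0.62 in WT and 0.79 in SIRT6-tg, both larger than that SD. No test was run on these sums over members. The shares stand on the mtDNA genes with ample reads, since mt-Nd3 had 460 counts over 28 libraries and 5 others had almost none.

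Genes that work with the chain but do not match the naming rule were counted in the same way in males, from lists chosen with earlier results known. Of all genes tested, 9.68% were called higher in males. Of 5 subunits outside the naming pattern 2 were higher, Cyc1, the cytochrome c1 of complex III (log2 fold change 0.46, SE 0.086, edgeR adjusted p = 0.000171), and Ndufab1, the acyl carrier protein of complex I (log2 fold change 0.44, SE 0.13, edgeR adjusted p = 0.0148). Of 21 electron carriers and entry points 9 were higher, among them Coq9 and Coq5 of ubiquinone synthesis (log2 fold changes 0.36 and 0.36) and Etfa and Etfdh, which feed electrons from fatty acid oxidation (0.48 and 0.46). Assembly factors were higher in 7 of 16 for complex I, 1 of 4 for II, 3 of 6 for III, 2 of 18 for IV, and 2 of 3 for V, and the count for complex IV was near the share of all genes. The leading ones were Ecsit of complex I (log2 fold change 0.52, SE 0.084, edgeR adjusted p = 2.6e-05), Taco1, a translational activator of mt-Co1 (log2 fold change 0.47, SE 0.087, edgeR adjusted p = 0.000184), and Bcs1l, which inserts the Rieske protein (log2 fold change 0.46, SE 0.094, edgeR adjusted p = 0.000582). No gene of these lists was called lower in males.

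Called genes of the machinery of the mitochondrial genome had the same direction. Of 17 genes of mtDNA upkeep and transcription 9 were higher, led by Mterf4, Ssbp1, Tfb2m, and Twnk (log2 fold changes 0.35, 0.35, 0.45, and 0.35), and of 18 genes of mitochondrial RNA processing and stability 9 were higher, led by Supv3l1, Trmt10c, Ptcd2, and Hsd17b10 (0.35, 0.44, 0.37, and 0.65). Of 16 mitochondrial ribosomal and transfer RNA genes that could be tested 6 were higher, and the ribosomal RNA mt-Rnr2 rose by 0.90 (SE 0.19, edgeR adjusted p = 0.000705). Among 11 transcriptional regulators of respiration genes a single one passed, Ppargc1b (log2 fold change 0.39, SE 0.14, edgeR adjusted p = 0.0467), near the share of all genes, and the list's median was 0.19. Ppargc1a, its better known paralog, was at 8.04, 11 and 14.7 CPM against 7.69, 10.2 and 13.9 CPM (log2 fold change −0.03, SE 0.19, edgeR adjusted p = 0.946). Of 4 respirasome factors and inhibitors Higd1a and Higd2a were higher (0.46 and 0.35).

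In females no gene of these lists was called. In WT mice, where 5.71% of all genes were lower in males and 6.66% higher, 6 of the 17 mtDNA upkeep genes were lower and none higher, among them Mterf4 (log2 fold change −0.39, SE 0.078, edgeR adjusted p = 0.000768) and Tfb2m (log2 fold change −0.59, SE 0.12, edgeR adjusted p = 0.00157), and 6 of 16 mitochondrial ribosomal and transfer RNA genes were lower. Of the RNA processing genes 4 of 18 were lower and 1 higher, and of the electron carriers 2 of 21 were lower and 1 higher. Of the complex IV assembly factors 3 of 18 were higher and none lower. In SIRT6-tg mice, where 12.9% of all genes were higher in males and 10.2% lower, the upkeep list had 3 of 17 higher and none lower, complex I assembly factors 8 of 16 higher, complex IV assembly factors 9 of 18 higher, and electron carriers 11 of 21 higher, the last 3 lists with none lower. The coactivator Ppargc1a was at 8.04, 11 and 14.7 CPM in male WT and 13.7, 21 and 35 CPM in female WT (log2 fold change −0.97, SE 0.19, edgeR adjusted p = 0.00055). In SIRT6-tg mice it was lower in males as well (log2 fold change −0.82, SE 0.19, edgeR adjusted p = 0.00195), and the nuclear receptor gene Esrra was higher (log2 fold change 0.59, SE 0.14, edgeR adjusted p = 0.00219).

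Promoters were read from RefSeq (GRCm38.p6, 250 bases before to 50 after each annotated start) for 68 of the 81 nuclear members. They were searched on both strands for letters that factors of respiration genes are known to bind, and the share of members with a match at any listed start is set beside that of all 27025 genes in the table. GCGCATGC (NRF1) was in 14.7% of members and 3.05% of all genes, CCGGAAG (the ETS factor GABP) in 23.5% and 9.93%, and AAGATGGC (YY1) in 14.7% and 3.19%. TNAAGGTCA (ERR) was in 4.41% and 1.43%, TGACGTCA (CREB) in 5.88% and 2.03%, and GGGGCGGGG (Sp1) in 17.6% and 12.9%. The direct-repeat string of PPAR was in 0 members and 0.0481% of all genes. At least 1 of the NRF1, GABP, YY1, and ERR strings was in 32 of the 68 members, or 47.1%, and in 16.2% of all genes. Of the 22 members called higher in males that had a promoter, 2 held the NRF1 string, 4 the GABP string, and 3 the YY1 string. A match is a description of letters and not a bound site, and the ERR and PPAR strings share letters. Of the members with the lowest adjusted p per complex in males that had a promoter, Sdha, Uqcrc1, Cox8a and Atp5c1 held none of the strings in the 250 bases before the start. Cox6b2, called lower in males, held an Sp1 string there. The 250 bases before the start of 3 such members called higher in males are shown, 5′ to 3′ on the gene's strand, because each holds at least 1 of the strings within them, in capitals.
Sdhd (chr9:50603850-50604099, minus strand): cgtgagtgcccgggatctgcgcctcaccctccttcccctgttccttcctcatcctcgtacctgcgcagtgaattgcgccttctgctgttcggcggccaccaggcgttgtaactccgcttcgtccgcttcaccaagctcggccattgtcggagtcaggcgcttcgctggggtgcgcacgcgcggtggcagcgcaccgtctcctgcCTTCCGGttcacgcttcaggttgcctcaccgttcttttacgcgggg
Ndufa10 (chr1:92473759-92474008, minus strand): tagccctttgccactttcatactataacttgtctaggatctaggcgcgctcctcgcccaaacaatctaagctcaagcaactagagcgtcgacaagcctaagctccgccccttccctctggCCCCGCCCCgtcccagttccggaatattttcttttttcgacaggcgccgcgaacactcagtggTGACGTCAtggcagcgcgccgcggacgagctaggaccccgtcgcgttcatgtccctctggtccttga
Atp5b (chr10:128083057-128083306, plus strand): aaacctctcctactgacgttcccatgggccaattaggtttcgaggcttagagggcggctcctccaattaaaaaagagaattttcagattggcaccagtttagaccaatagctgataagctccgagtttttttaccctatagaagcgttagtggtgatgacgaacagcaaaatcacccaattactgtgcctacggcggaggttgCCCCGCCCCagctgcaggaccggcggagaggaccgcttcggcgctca
The capitals are a GABP string on the reverse strand in Sdhd, an Sp1 string on the reverse strand and a CREB string in Ndufa10, and an Sp1 string on the reverse strand in Atp5b.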

How the data were processed

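Liver RNA of 28 mice was sequenced as 1 library per animal. According to the study's methods the authors aligned single-end reads with STAR 2.5.0a to mm10, kept reads with a single place in the genome, and counted them per Gencode vM12 gene with HTSeq. They deposited these counts per gene without normalization. The library kit does not mark strand, and the strand setting of the counting and the read length are not given in the sources used here. Features were paired with symbols by Ensembl ID through a Gencode vM21 annotation (49326 of 49585 matched). All columns of the table belonged to a library of the series.

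The 21583 genes whose normalized counts averaged 0.5 or more were fitted in edgeR 4.0.16 (R 4.3.3) with TMM scaling and the robust quasi-likelihood test over all 4 groups, and p-values were adjusted by Benjamini-Hochberg over all genes tested. The threshold was 0.05. Contrasts were SIRT6-tg against WT in each sex, the difference of both, and male against female in each genotype. DESeq2 1.42.0, sva 3.50.0, other scalings and filters, a replicate block, a length and GC trend, and leaving out each library in turn were alternatives. The script was tested on simulated counts with known changes. No pair of libraries of a group agreed within sampling noise (lowest chi-square per gene 13.25). Levels are TMM-scaled counts per library depth (CPM), and RPKM divides by the principal transcript's length.

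Members and gene lists were chosen with earlier results of these data known. Genes named were, per complex, those with the lowest adjusted p and the lowest log2 fold change in males, those leading each other comparison, the X-linked members, and the isoform groups. Other lists are named by up to 4 genes of lowest adjusted p.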

Additional observations from a re-analysis of the deposited data

Results flagged for a closer look

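In each group of 7 libraries the highest and the lowest value were set against the rest, for the shares and for the named genes. Of 152 such groups, 21 held a library whose gap to its neighbour exceeded Dixon's 95% critical share of the group's range, and chance gives about 1 in 20. Male WT 6 accounted for many of them. The nuclear members took 1.77% of its counts, and it was the highest of male WT for Atp5c1 (250.5 CPM), Cox6a1 (567 CPM), Cox6b1 (422 CPM), Cox7a1 (4.13 CPM), Cox7a2 (196 CPM), Cox7b (214 CPM), Ndufa1 (94.7 CPM), Ndufa10 (175 CPM), and mt-Nd3 (1.31 CPM). For Atp5b the same library was the lowest, at 973 CPM. Its short-gene index, 0.64, was the highest of male WT, and the part of the index in these values was not tested.

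Female WT 1 stood above its group for Atp5c1 (359.6 CPM) and Ndufa1 (87.5 CPM), and male SIRT6-tg 7 for Ndufa10 (277 CPM). These were the libraries of highest short-gene index in their groups. Female SIRT6-tg 1 was the lowest of its group for Atp5g2 (0.634 CPM) and the highest for mt-Nd3 (0.996 CPM). At levels of a few counts, the muscle forms stood out in female WT 2 (Cox6a2 0.730 CPM and Cox8b 0.269 CPM), in male SIRT6-tg 4 (Cox6a2 0.194 CPM), in male WT 3 (Cox8b 0.420 CPM), and in male SIRT6-tg 1 (Cox8b 0.164 CPM). Summed skeletal muscle markers were at 30 CPM in female WT 2 and 9.76 CPM in male WT 2, and summed adipose markers at 4.86 CPM in male WT 3, and their part was not tested.

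The genotype effect on Atp5b differed between males and females by 0.38 on the log2 scale (edgeR adjusted p = 0.0348). It was 1 of 79 nuclear members to pass, near the 1.2% of all genes called higher. The call was lost under several alternatives, with an edgeR adjusted p up to 0.0797 on leaving out 1 library. Sex and Sirt6 level cannot be told apart in this difference.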

How the results depend on the processing

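Counts here are of the 87 members tested, both genomes together. In males 34 were higher and 1 lower. Upper-quartile scaling gave 19 higher, library size alone 1, and 2 surrogate variables 81, and the short-gene index as covariate gave 2 lower. Leaving out 1 library gave 18 to 69 higher. No member was called in females in any of the alternatives run. For the difference between the sexes, 1 member passed, and 0 did with RLE, upper-quartile or library-size scaling, no filter, the replicate block, or without the 4 libraries of highest index. The count was 2 with filterByExpr, 3 with DESeq2, 16 with a length and GC trend removed, 17 (and 1 lower) with the index, 63 with 2 surrogate variables, and 0 to 11 on leaving out 1 library. In WT 1 member was higher in males and 5 lower. Library size alone gave 5 and 3, 2 surrogate variables 5 and 26, a length and GC trend removed 3 and 8, the index 5 and 33, and nuclear genes only, which leaves out mtDNA by construction, 0 and 0. Leaving out 1 library gave 0 to 1 higher and 4 to 6 lower. In SIRT6-tg 41 were higher and 1 lower. The number lower was 0 with nuclear genes only, with no filter and without the 4 libraries of highest index, 2 in separate fits, and 9 with the index, and leaving out 1 library gave 25 to 61 higher and 0 to 1 lower. The causes were not tested.

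The direction turned for Atp5s (−0.15), Cox7a2l (−0.0059) and Atp5g2 (−0.14) in males with library size alone, for Atp5s (−0.024), Cox6a1 (−0.0044) and Cox7a2l (−0.0009) in males and Cox7b (−0.18) between the sexes in SIRT6-tg with the index, and for Atp5g2 (−0.025) without the 4 libraries. Ndufb11 between the sexes in WT turned to 0.14 with library size alone, and leaving out 1 library gave −0.19 to 0.087, above 0 without male WT 4 or female WT 1, 2 or 4. Of these only Cox7b was then called (edgeR adjusted p = 0.0424). The log2 ratio of nuclear to mtDNA counts, SIRT6-tg minus WT in males, was −0.20 to 0.063 on leaving out 1 library, above 0 without male WT 6. Without the 2 most abundant members of each genome the differences in mtDNA share, in percentage points, fell from 0.66 to 0.43 and 0.67 to 0.37 between genotypes in males and females, and went from −1.04 to −0.59 and −1.05 to −0.53 between the sexes in WT and SIRT6-tg, fewer genes being summed by construction.

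Replicate numbers did not pair the libraries: over 42 pairs of the same number the correlation of deviations ran from −0.35 to 0.33 with a median of 0.035, and 12 were over 0.1. With the replicate block 44 members were higher in males. The number of counts limits Cox6a2, Cox6b2, Cox8b, Atp5g2 and mt-Nd3.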
